A study of Canis lupus familiaris with 17 samples.

Results

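Interferon-signature monocytes are blood monocytes that carry transcripts induced by interferon. They were taken here as cell barcodes with the transcripts of a dog monocyte and with at least 6 unique molecular identifiers (UMIs, each standing for 1 captured transcript) summed over IFI44, IFI44L, ISG15, XAF1, IFIT1 and RSAD2. The monocyte gate asked for at least 20 UMIs of LYZ, which encodes lysozyme, and at least 5 of DLA-DRA, an MHC class II chain. It allowed at most 1 UMI of IL18 and none of CD3E, MS4A1, FLT3 or CAMP, which mark T cells, B cells, dendritic cells and granulocytes. Of 84361 barcodes kept in 17 dogs, 9159 met the gate and 1204 of these were interferon-signature monocytes, which is 13.1% of the gated monocytes and 1.43% of all kept barcodes. The other 7955 gated monocytes are called other monocytes.

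The dogs were 7 clinically healthy pets and 10 pets with osteosarcoma (OS), a malignant bone tumour, sampled with the primary tumour in place and before any treatment. All were recorded as Wt, and their leukocytes came from the interface of a Ficoll gradient, were treated to lyse red cells and were captured as single cells on a 10x Genomics instrument. In the study's records the healthy dogs were middle-aged, and 5 of the dogs with OS were old and 5 middle-aged. Each dog gave 1 blood sample and 1 library, so age, any undetected infection and the day of processing cannot be told apart from the dog.

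Type I interferons are secreted by cells that sense viral or other misplaced nucleic acid, and signal through receptor-bound kinases such as JAK1 to transcription factors that switch on a large set of interferon-stimulated genes. Their products block viral replication, sense more nucleic acid and raise antigen presentation. Monocytes respond strongly, and a monocyte population with this program is seen in the blood in viral infection and in autoimmune disease.

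A dog's library held between 27811378 and 46295707 UMIs in the healthy dogs and between 7740230 and 56510134 in the dogs with OS. Interferon-signature monocytes had a median of 9 UMIs of the 6 genes. Their median of all UMIs was above that of the other monocytes in 16 of 17 dogs, and a minimum count of UMIs is more easily met in a deeper cell. Among the kept barcodes, 922 sequences occurred in more than 1 library, no pair of libraries shared more than 16, and 27 interferon-signature monocytes had a barcode also kept in another dog. One dog stood apart from its group. Healthy dog 7 held 210 interferon-signature monocytes, 17.4% of all and 65.2% of those from healthy dogs, and results that rest on it are given with and without it.

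The limit of 6 UMIs cut a continuous range. Of the gated monocytes 49.1% had no UMI of the 6 genes, 255 had exactly 5 and 224 had exactly 6, while 47.0% of the interferon-signature monocytes had 10 or more. The members just inside and just outside the limit were therefore separated by a single transcript.

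**Figure D1:**
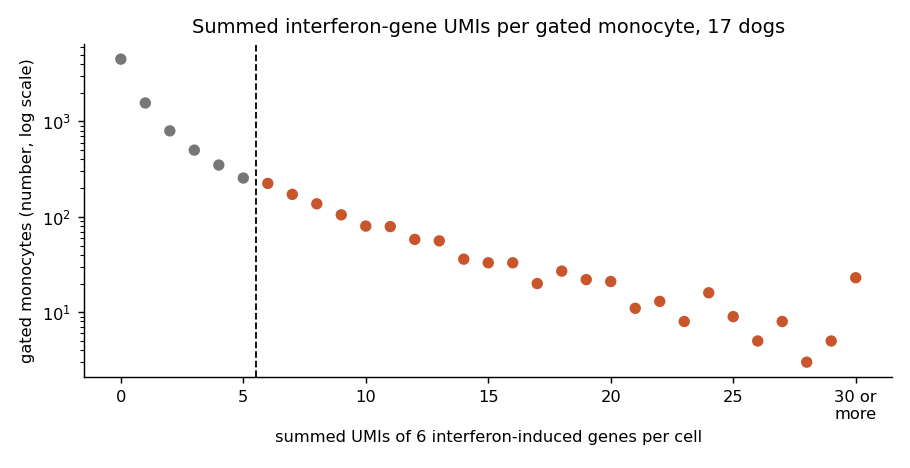
Number of gated monocytes (log scale) at each sum of UMIs of the 6 interferon-induced genes, over 17 dogs. Grey points are other monocytes, orange points are interferon-signature monocytes and the dashed line is the limit. The number falls without a gap across the limit, from 255 cells at 5 UMIs to 224 at 6.

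The genes of the rule describe the members and are not a result. In the 10 dogs with at least 25 members (healthy dogs 3 and 7 and all dogs with OS but dogs 3 and 4), IFI44L was detected in a median of 93.4% of members, XAF1 in 89.8% and IFI44 in 88.8%. ISG15, a ubiquitin-like protein that is attached to viral and cellular proteins, was found in 48.2% to 81.4%. IFIT1, which binds foreign RNA, reached 47.2% at most. RSAD2, whose product viperin makes a chain-terminating nucleotide, was found in 2.35% to 18.6% with a median of 7.80%, so that it marked few of the cells.

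The share of interferon-signature monocytes differed widely from dog to dog. In healthy dogs it was 1.61% of gated monocytes at the lowest, 3.35% at the median and 63.6% at the highest. In dogs with OS it was 0.909% at the lowest, 15.9% at the median and 30.2% at the highest. The groups overlapped fully: healthy dog 7 was above every dog with OS, OS dog 3 with 1 such cell was below every healthy dog, and 7 of 10 dogs with OS lay above the highest of the other 6 healthy dogs (8.63%). The median of the differences between a dog with OS and a healthy dog was 7.85 percentage points (Wilcoxon rank-sum test, exact and two-sided, p = 0.193, Benjamini-Hochberg adjusted p over 3 shares 0.270). Without healthy dog 7 it was 10.8 percentage points (exact p = 0.0420, adjusted p = 0.0629), so that the unadjusted p alone passed 0.05. As a share of all kept barcodes the median was 0.332% in healthy dogs and 1.31% in dogs with OS (exact p = 0.193).

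**Figure D2:**
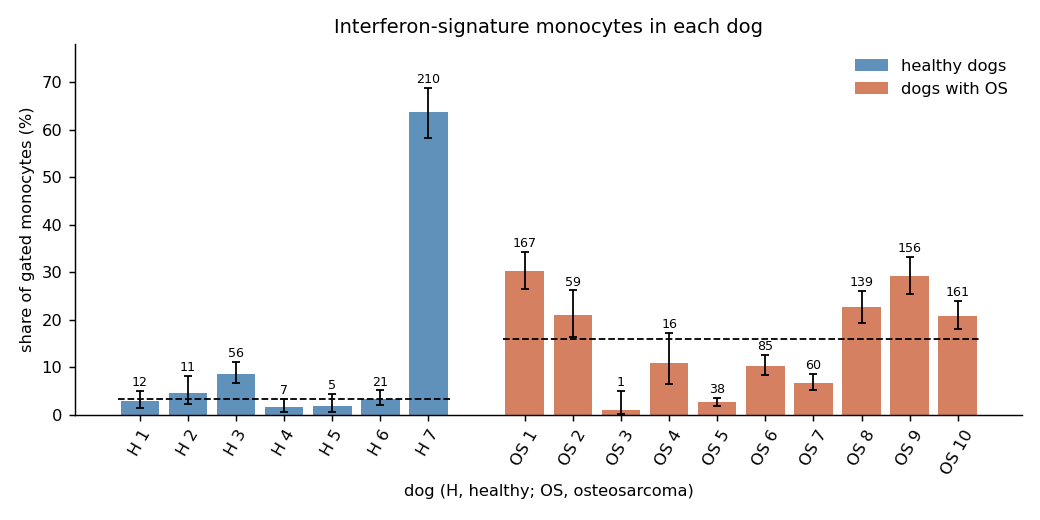
Share of gated monocytes (%) that were interferon-signature monocytes in each of 7 healthy dogs and 10 dogs with OS. Bars are single dogs, error bars are 95% Clopper-Pearson intervals, numbers above the bars count the cells and dashed lines are group medians. Healthy dog 7 reached 63.6%, the highest dog with OS 30.2%.

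Depth was then held equal between cells. When gated monocytes were thinned to 4000 UMIs, leaving out 53 of 2967 in healthy dogs and 87 of 6192 in dogs with OS that had fewer, and 2 of the 6 genes' UMIs were asked for, the share was 3.03% to 59.8% in healthy dogs with a median of 6.39%, and 0.935% to 37.3% in dogs with OS with a median of 19.1% (exact Wilcoxon rank-sum test, p = 0.270). Without healthy dog 7 the exact p was 0.0727. The median number of UMIs per gated monocyte was 10085 to 15301 in healthy dogs and 9283 to 14912.5 in dogs with OS. Intervals and limits given here cover counting error only.

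Interferon-signature monocytes were next set beside the other monocytes of the same dog, as log2 of CPM (UMIs scaled to a common total per cell set) plus 1, in the 10 dogs with at least 25 members. The rule chose the cells in this contrast, and the values are a description with no test. Of 6967 genes outside the rule with a mean of at least 10 CPM, 187 were higher in the members of every dog (2.68%) and 107 were lower in every dog (1.54%). The median difference over all these genes was -0.02, and 5% to 95% of them lay between -0.26 and 0.25. Only 39 of the 187 were at least 2-fold higher by their median, while 3 of the 107 were at least 2-fold lower. Of these 39, 25 belonged to the lists of interferon genes and monocyte functions. The lists were drawn up with earlier results of these data known and hold the study's own markers of this population. What share of the 6967 genes they cover is not given, so that 25 of 39 is a description only. By this count few genes had the same direction in all 10 dogs, and most of those that differed at least 2-fold were higher. The count is not a test. Member sums were small in some dogs (485513 UMIs in OS dog 5), so that genes near 10 CPM had few UMIs there and could miss it.

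Antiviral effectors were the list with the most genes higher in every dog, 27 of 29 measured, with none lower in every dog and a median difference of 1.21. Not every interferon-induced list was like this, since neither GBP1 (0.15, higher in 9 of 10 dogs) nor GBP6 (0.37, higher in 7), GTPases that attack the vacuoles of microbes, was higher in all dogs. The same count over all genes was 2.68%. OAS1, OAS2 and OAS3 make the second messenger that activates RNase L against viral RNA. OAS1 was 248 CPM at the lowest, 350 at the median and 549 at the highest of the 10 dogs in members, against 48.5, 74.7 and 149 CPM in other monocytes. The 2 sets of values did not overlap, and the median difference within dogs was 2.02. OAS3 was at 61.6 to 112 CPM in members and 8.15 to 23.2 CPM in other monocytes, a median difference of 2.44, the largest in the list of antiviral effectors, which leaves out the genes of the rule. OAS2 differed by 1.47 with a slight overlap, since its highest value in other monocytes (225 CPM) lay above its lowest in members (214 CPM).

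MX2, a dynamin-like GTPase that traps viral capsids, was at 744 to 1046 CPM in members and 217 to 384 CPM in other monocytes, a median difference of 1.62. MX1, its neighbour in the genome, was not analysed here. SAMD9L, which restricts poxviruses and growth, differed by 1.42. EPSTI1, an interferon-induced protein of macrophages, stood at 138 to 379 CPM in members and 21.9 to 124 CPM in other monocytes, a median difference of 1.96. EIF2AK2, the kinase PKR that stops translation on double-stranded RNA, differed by 1.28, IFIT2, which binds RNA, by 1.69, and RTP4, a chaperone of receptors, by 1.65. The 2 antiviral genes that were not higher in all 10 dogs were MOV10, a helicase, and OASL|ENSCAFG00000024447, a relative of the OAS enzymes, each higher in 9.

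Of 7 sensors and their adaptors 3 were higher in every dog. DDX58 encodes RIG-I, the sensor of viral RNA, and was at 107 to 160 CPM in members and 13.1 to 45.6 CPM in other monocytes, a median difference of 2.32 and no overlap. CGAS, the sensor of DNA in the cytosol, differed by 1.99 and ZBP1, the sensor of Z-form nucleic acid, by 1.18, both in every dog. TLR4, the receptor for bacterial lipopolysaccharide, was at a median of 85.6 CPM in members and 86.8 CPM in other monocytes and was higher in 3 of 10 dogs. STING1, which signals downstream of cGAS, was likewise higher in 4 of 10 dogs, with a median difference of -0.04. In the ISG15 conjugation system 3 of 4 genes were higher in every dog. These were the ligase HERC6 (1.63), the conjugating enzyme UBE2L6 (0.87) and the ligase TRIM25 (0.77), while the activating enzyme UBA7 was higher in 6 of 10 dogs.

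Of 6 transcription factors of interferon signalling 2 were higher in every dog, and of 3 receptors and kinases none (2.68% of all genes). STAT2, a transcription factor that interferon activates and also induces, was at 27.3 to 43.3 CPM in members and 11.5 to 22.1 CPM in other monocytes, a median difference of 1.02 and no overlap. IRF1 was higher in 8 and IRF2 in 8 of 10 dogs, and IRF8 was lower in 9 with a median difference of -0.49. IFNGR1 is a chain of the interferon gamma receptor, not of the type I receptor. It and the kinases JAK1 and JAK2 had median differences of 0.03, 0.06 and 0.04, and each was higher in 6 of 10 dogs. IFNAR1 and IFNAR2, the chains of the type I receptor, were not analysed here, nor were IRF7 and IRF9. Of the ligands, TNFSF10 (TRAIL, a death ligand) was at a median of 658 CPM in members and 363 CPM in other monocytes and differed by 0.73 to 1.07 within dogs, and TNFSF13B (BAFF, a survival factor of B cells) differed by 0.42, both in every dog. CXCL10, a chemokine for activated T cells, was higher in 6 of 10 dogs and its difference ran from -1.60 in OS dog 5 to 3.82 in OS dog 7.

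**Figure D3:**
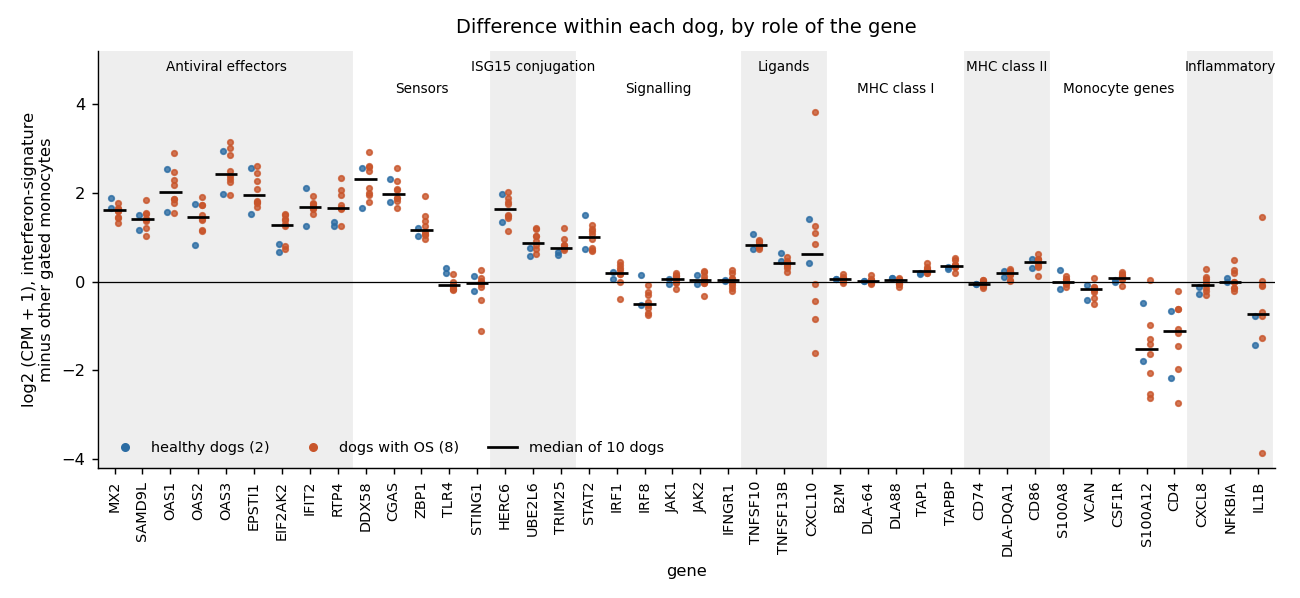
Difference of log2 (CPM + 1) between interferon-signature and other monocytes within each of 10 dogs, for genes grouped by role. Blue points are 2 healthy dogs, orange points 8 dogs with OS and black lines medians. The 9 antiviral effectors plotted lie above 0 in every dog, JAK1, B2M and CD74 lie around 0, and S100A12 and CD4 have medians of -1.51 and -1.11.

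Genes of antigen processing differed, by less than the antiviral genes. TAP1, the peptide transporter, was at 468 to 563 CPM in members and 371 to 498 CPM in other monocytes, a median difference of 0.25 with overlap between dogs. TAPBP, PSMB9, PSME1, PSME2 and NLRC5, which load peptides, cut them or drive MHC class I transcription, were also higher in every dog by 0.20 to 0.57. B2M, the light chain of MHC class I, differed by 0.07, DLA-64 by 0.01 and DLA88 by 0.04, and none of them in one direction in all dogs. In all 6 of 12 measured genes of this list were higher in every dog and none lower. Of 5 class II genes 2 were higher in every dog, DLA-DQA1 by 0.19 and the costimulator CD86 by 0.44, whereas the invariant chain CD74 was higher in 2 and DLA-DMA, which helps to load peptides, in 7 of 10 dogs.

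The members kept the transcripts of a monocyte. Of 21 measured monocyte genes 18 had no common direction, among them S100A8 (median 2515 CPM in members, 2491 CPM in other monocytes), VCAN, an extracellular proteoglycan (1856 and 2047 CPM), and CSF1R, the receptor for the growth factor of monocytes (297 and 286 CPM). BPI, an antibacterial protein, was higher in every dog by a median of 0.11, and FCGR1A, the high-affinity receptor for IgG, was lower in every dog by 0.20. Some transcripts were lower. CD4, carried by helper T cells and, in dogs, by neutrophils and part of the monocytes, was at a median of 18.9 CPM in members. It was at 48.9 CPM in other monocytes and lower in all 10 dogs, with a median difference of -1.11. The study divides dog monocytes by CD4. It lists LTF, S100A12, IL1B and CSF3R among the markers of a CD4-positive subset, the monocytic myeloid-derived suppressor cells. The part of such subsets in these differences was not tested. THBS1, an adhesive glycoprotein, differed by -1.11, LTF, the iron-binding lactoferrin of granules, by -0.87 and APCDD1, an inhibitor of Wnt signalling, by -0.85, each in every dog. S100A12, a calcium-binding alarmin, was at 49.5 to 357 CPM in members and 262 to 481 CPM in other monocytes and was lower in 9 of 10 dogs, with OS dog 2 near 0 (0.04). Among genes lower in every dog with a mean of at least 50 CPM in other monocytes, the set in which they are high, ENSCAFG00000029470, which has no name in the files, differed most (-1.25). The lower genes were less stable: with a deeper subset of the other monocytes drawn toward the depth of the members, 69 genes were lower in every dog, 45 of them among the 107, and the differences were -0.74 for ENSCAFG00000029470, -0.60 for CD4 and -0.51 for LTF. OAS1 differed by 2.09 there. The draw left fewer cells, left healthy dog 7 unchanged (median 11406.5 UMIs against 13340 in members) and stayed below the members in OS dogs 1, 2, 8, 9 and 10 and slightly in healthy dog 3, so that the part of depth was not tested. In the 14 dogs with at least 10 members, 86 genes were higher and 38 lower in every dog.

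Of 11 inflammatory genes none was higher in every dog, which with so few genes cannot be told apart from the 2.68% over all genes. PTGS2, the inducible cyclooxygenase, was the 1 gene of this list lower in every dog (median difference -0.53), against 1.54% of all genes. CXCL8, which draws neutrophils, ranged from 169 to 10572 CPM between dogs in members and from 158 to 10165 CPM in other monocytes, so that it differed far more between dogs than within them (median difference -0.08). IL1B differed by -0.72, from -3.86 in OS dog 6 to 1.46 in OS dog 8. Of 8 lysosomal and phagocytic genes LGALS9, a galectin (0.90), and SIGLEC1, the sialic acid receptor CD169 (0.91), were higher in every dog, while LGALS3, another galectin, was lower in 9 of 10 (-0.20). Of 3 genes of non-classical monocytes only NR4A1 was higher in every dog (0.20), and CX3CR1, the fractalkine receptor, differed by -0.20 and MS4A7 by -0.16. Of 64 ribosomal protein genes none was higher and 1 was lower in every dog, against 2.68% and 1.54% of all genes.

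Other genes among the 10 with the largest differences were KCNH7, a potassium channel (2.01), PLVAP, a protein of the endothelial diaphragm (1.73), and ENSCAFG00000016252 (2.92), ENSCAFG00000006557 (2.48) and ENSCAFG00000009800 (2.001), which have no name in the files. The limit of 50 CPM on these genes was set on the members alone, the set in which they are high, and the 3 unnamed genes had medians of 5.77, 7.70 and 9.13 CPM in other monocytes. In the RefSeq annotation of another dog assembly, PLVAP lies beside BST2, which encodes the antiviral protein tetherin, and KCNH7 lies beyond GCA from IFIH1, which encodes the RNA sensor MDA5. IFIH1 was not among the genes counted, while GCA and BST2 were. Whether reads of such neighbours entered the counts of KCNH7 or PLVAP was not tested.

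Markers of other cells were low or at like levels in both sets. The gate had left cells with CD3E, MS4A1, FLT3 or CAMP out of both sets, so that low levels were in part set by the selection. None of 9 genes of T and NK cells reached a mean of 10 CPM, and their summed level was 4.12 to 18.6 CPM in members and 4.70 to 19.03 CPM in other monocytes. Neither did any gene of plasma cells, erythroid cells or eosinophils and basophils. Of the B cell genes CD79A (median 3470 CPM in members, 3251 CPM in other monocytes) and BANK1 passed, neither in one direction in all dogs. In the annotation of the other dog assembly CD79A lies next to RPS19 and ARHGEF1, which were not among the genes counted. Whether reads of these neighbours entered the counts of CD79A was not tested. Of 5 neutrophil genes CSF3R, which the study also lists for monocytic suppressor cells, was lower in members of every dog (-0.33) and none was higher. Of 2 dendritic cell genes BATF3 was higher in every dog (0.26). Scrublet scores barcodes as likely doublets, and a quota of the highest scores, fixed in advance from the number of barcodes, was marked in each library. This marked 3938 of the 84361 kept barcodes and 28 of the 1204 members.

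Across the full range of the 6 genes' UMIs OAS1, DDX58, MX2 and TNFSF10, none of them in the rule, were higher at each step, also below the limit of 6. OAS1 was at 27.4 ± 19.5 CPM (SD, n = 17 dogs) in monocytes with no UMI, 70.1 ± 40.3 (n = 17) at 1 to 2, 143 ± 49.6 (n = 16) at 3 to 5, 281 ± 84.0 (n = 11) at 6 to 9, 405 ± 75.1 (n = 10) at 10 to 19 and 657 ± 203 (n = 4) at 20 or more. Other monocytes thus held cells with raised OAS1, and the limit of 6 divided a gradient. DDX58 went from 12.2 to 265 CPM, MX2 from 182 to 1270 CPM and TNFSF10 from 293 to 1032 CPM between the first and the last step. JAK1 stayed between 408 and 453 CPM over all steps, with no steady direction. B2M was also higher at each step, over a narrower range, from 8417 ± 1195 CPM at the first to 9936 ± 694 CPM at the last. S100A12 went the other way, from 442 ± 112 CPM at 0 UMIs to 249 ± 93.6 at 1 to 2 and 72.9 ± 92.5 at 20 or more, and CD4 from 63.2 to 18.3 CPM. The steps hold different dogs, since few dogs had cells at the top, and the median UMIs per cell of the dogs at each step went from 11406 at the first to 12948 at the last. The part of either in these values was not tested.

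**Figure D4:**
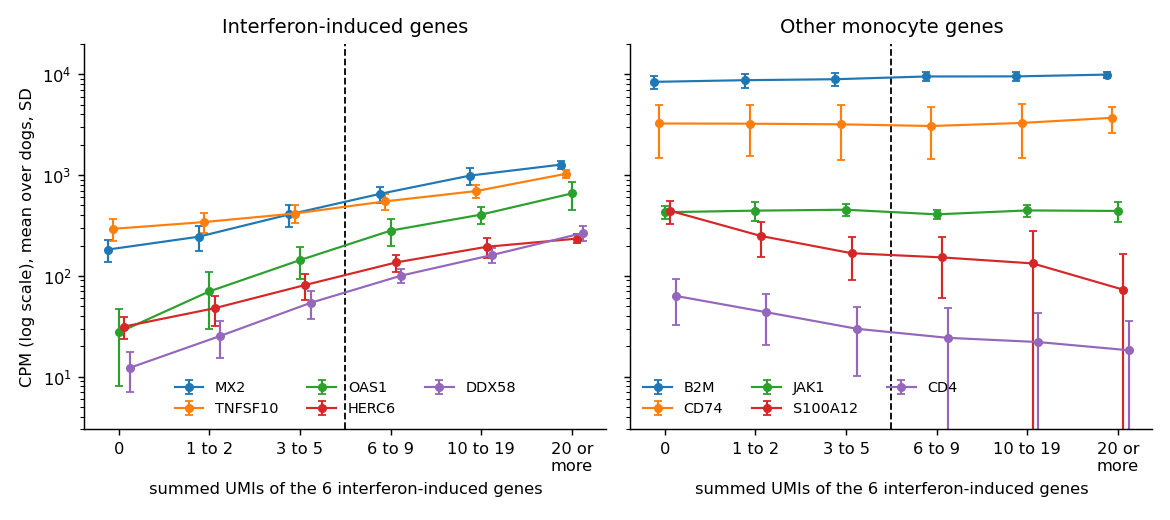
CPM (log scale) of 10 genes outside the rule in gated monocytes split by their summed UMIs of the 6 interferon-induced genes. Points are means over dogs with at least 10 such cells (17, 17, 16, 11, 10 and 4 dogs), bars are SD and are cut at the axis, and the dashed line is the limit of 6. OAS1 goes from 27.4 to 657 CPM and S100A12 from 442 to 72.9 CPM, while JAK1 stays between 408 and 453 CPM.

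Whether these cells differed between dogs with OS and healthy dogs was tested on counts summed per dog, in the 5 healthy dogs and 9 dogs with OS that had at least 10 members. The genes of the rule were not tested. Of 10759 genes none passed an adjusted p of 0.01 with an absolute log2 fold change above 0.58 in edgeR's quasi-likelihood test, and none did with DESeq2. The tools were not alike in this, since the smallest adjusted p was 0.909 in edgeR and 0.0148 in DESeq2. Unadjusted p-values under 0.05 were found for 496 genes (4.61%), 305 of them higher and 191 lower in OS, and for 371 genes with DESeq2, 163 of them higher and 208 lower, so that the larger share turned with the tool. In simulated data of the same size edgeR recovered 64.0% of 3-fold changes, and 98.8% of those in genes with a mean of at least 50 counts. The changes were placed only in genes above a minimum mean count, and no dog was simulated to stand apart. These shares therefore do not hold for all 10759 genes.

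The ranges of the interferon genes overlapped between the members of both groups. OAS1 was 192 CPM at the lowest, 296 at the median and 374 at the highest in healthy dogs and 248, 324 and 549 CPM in the OS group, and the log2 fold change was 0.36 ± 0.22 (SE, edgeR adjusted p = 1.00). DDX58 was at 106 to 146 CPM and 99.0 to 160 CPM (0.19 ± 0.17). OAS2, HERC6, OAS3, IFIT2, RTP4 and EIF2AK2 had log2 fold changes between 0.006 and 0.19, and the ranges of the groups overlapped for all 8 of these genes. Without healthy dog 7 the log2 fold changes of the 8 genes were 0.10 to 0.49, with edgeR adjusted p-values of 0.817 to 0.973. The genes with the smallest p in each direction, none of them called by edgeR, included FN1, fibronectin, at 465 to 779 CPM in healthy dogs and 583 to 1796 CPM in dogs with OS (log2 fold change 0.98 ± 0.25, adjusted p = 0.953). FADS1, a fatty acid desaturase, was at 0 to 3.13 CPM in healthy dogs and 2.06 to 31.1 CPM in dogs with OS (log2 fold change 2.92), and DOCK5, an activator of Rac, had 1 UMI in healthy dogs and 45 in dogs with OS. On the other side ACVR2A, an activin receptor, had -2.04 (adjusted p = 0.909), with healthy dog 7 at 415 CPM and the other healthy dogs at 28.2 to 81.3 CPM, and without that dog the log2 fold change was -0.36. SUGCT and FOXJ3 had -1.80 and -0.62, and ENSCAFG00000005494 had 6.01, with 5.64 to 34.9 CPM in healthy dogs and 6.74 to 2521 CPM in dogs with OS. The rest had too few UMIs for a fold change: SALL1 had 16, all in healthy dog 7, and none in dogs with OS, PPARGC1A had 13 and none, and ENSCAFG00000046360 had 1 and 94. Adjusted p-values in edgeR were 0.909 to 0.953 for all 10 genes.

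In all gated monocytes, which were not chosen by interferon genes, again none of 13504 genes was called with edgeR or DESeq2 (867 with an unadjusted p under 0.05 in edgeR, 6.42%, and 876 in DESeq2). OAS1 was at 20.002 to 291 CPM in 7 healthy dogs with a median of 29.4 and at 13.4 to 245 CPM in 10 dogs with OS with a median of 96.5. Its log2 fold change was 0.81 ± 0.56 (SE, edgeR adjusted p = 0.851). IFI44 had 0.68, IFI44L 0.47, IFIT1 0.29, XAF1 0.22, ISG15 0.16 and RSAD2 -0.36, with adjusted p-values between 0.862 and 0.986. These values rested on healthy dog 7, which had the highest healthy value of OAS1. Without that dog OAS1 had a log2 fold change of 1.80 ± 0.48 (SE, edgeR unadjusted p = 0.00131, adjusted p = 0.553), and IFI44 had 1.55, IFI44L 1.70, IFIT1 2.58, XAF1 0.97, ISG15 2.20 and RSAD2 1.98, which turned the sign of RSAD2. Adjusted p-values of these 6 genes were 0.553 to 0.645, and no gene was called.

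A last test asked whether the difference between interferon-signature and other monocytes itself depended on OS, in 2 healthy dogs and 8 dogs with OS. Of 13008 genes 6 were called (0.0461%) by edgeR with the dog as a block, and none by DESeq2. None of the 8 tested interferon genes that the study lists for this population was among them. The 6 genes rested on few counts or on the 2 healthy dogs and are given with the results flagged for a closer look.

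T cells and B cells took no part in the rule, and the same 6 genes were measured in them in the same libraries. T cells (at least 1 UMI of CD3E, none of MS4A1, at most 5 of LYZ) held 80.7 to 199 CPM of the 6 genes and B cells (the reverse) 48.4 to 260 CPM. Gated monocytes held 33.0 to 796 CPM, a range of 24.1-fold between dogs against 2.46-fold in T cells and 5.37-fold in B cells. In 7 of 17 dogs the T cells were above the monocytes. The lymphocytes thus had a narrower range that did not go as low as that of monocytes.

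The level in lymphocytes went with the share of interferon-signature monocytes. For T cells, log2 (CPM + 1) of the 6 genes against the share thinned to 4000 UMIs gave Pearson r = 0.870 (p = 2e-05) and Spearman rho = 0.880 (p = 1e-05, the smallest that 100000 permutations can give) over 17 dogs. For B cells r was 0.851 (permutation p = 1e-05) and rho 0.877 (p = 3e-05), and adjusted p-values over the 2 relations were 2e-05 for r in both and 2e-05 and 3e-05 for rho. Among the 10 dogs with OS r was 0.857 for T cells (permutation p = 0.00154) and 0.757 for B cells (permutation p = 0.0154). Among the 7 healthy dogs r was 0.875 (permutation p = 0.00968) and 0.973 (permutation p = 0.00707), while rho had permutation p-values of 0.0890 and 0.0665. Without the 2 dogs farthest from the median share, healthy dog 7 and OS dog 9, r was 0.879 and 0.8004. In the 6 healthy dogs without dog 7, r was 0.880 for T cells (permutation p = 0.0682) and 0.907 for B cells (permutation p = 0.0487), and rho was 0.543 (permutation p = 0.297) and 0.600 (permutation p = 0.241).

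Both measures of a dog come from 1 library, in which free monocyte RNA could reach lymphocytes. VCAN, a monocyte transcript that the lymphocyte gates did not use, was in T cells at 0.287% to 1.96% and in B cells at 0.0407% to 2.93% of its level in the dog's monocytes. For the 6 interferon genes the same ratio was 24.9% to 249% in T cells and 29.8% to 147% in B cells, so that the ratios of VCAN and of the interferon genes did not overlap in either cell type. The part of free RNA in the relation was not tested. Healthy dog 7 was highest in both, at 199 CPM in T cells and 260 CPM in B cells, and 6.80% of its B cells met the minimum of 6 UMIs against at most 1.69% in the other healthy dogs.

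**Figure D5:**
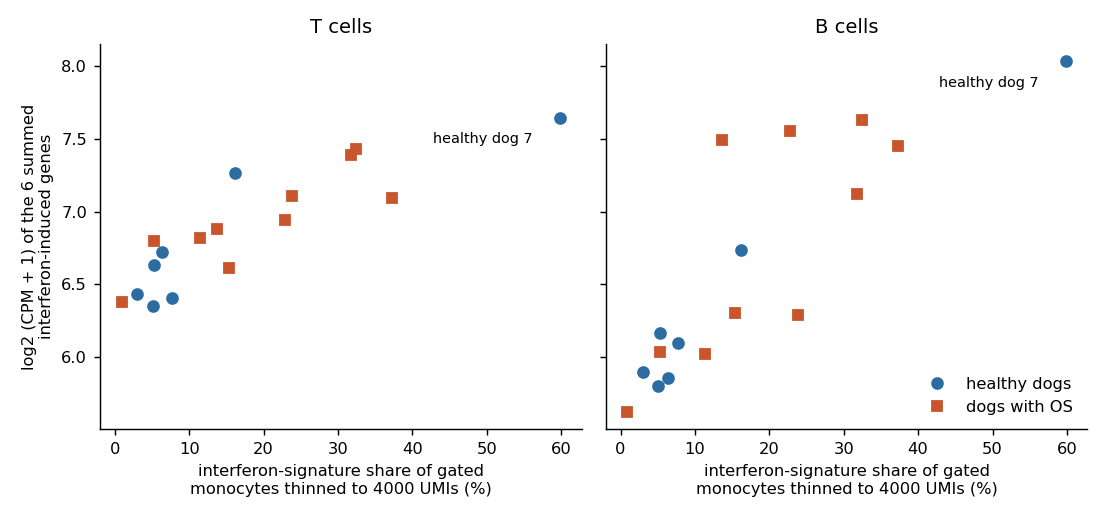
Level of the 6 summed interferon-induced genes in T cells (left) and B cells (right) of each dog, as log2 (CPM + 1), against the share of interferon-signature monocytes (%) among gated monocytes thinned to 4000 UMIs. Circles are 7 healthy dogs and squares 10 dogs with OS. Both panels slope upward, with r = 0.870 for T cells and 0.851 for B cells, and healthy dog 7 is at the upper right.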

How the data were processed

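UMI counts per gene and barcode were used as deposited by the authors, 1 matrix per dog for 20257 genes. They come, per the submitters' processing notes and the study's methods, from Cell Ranger 7.0.0 on CanFam3.1, with Seurat also named. Whether introns were counted in the deposited matrices is not given in the sources used here. Barcodes with 200 to 4500 genes, 500 to 20000 UMIs and under 10% mitochondrial UMIs were kept, 84361 of 93013, and doublets were left in except in the alternative with Scrublet. Without the upper limits there were 1314 members among 9564 gated monocytes.

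Counts of a cell set were summed per dog and scaled to CPM over all genes. The members, gene lists and tests were chosen with earlier results of these data known, and the minimum of 2 UMIs after thinning was set after the data had been seen. Dogs with at least 25 cells were planned for tests of genes. Fewer than 4 healthy dogs reached 25 members, so 10 cells were used for the test within members. edgeR's quasi-likelihood test used TMM normalization and genes with at least 10 counts, and called genes at an adjusted p under 0.01 and an absolute log2 fold change above 0.58. DESeq2 was an alternative. Shares were compared by Wilcoxon rank-sum tests, exact and two-sided. Procedures were tested on simulated data, where at most 1 unchanged gene was called in a comparison.

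Genes were named by rule: the 10 highest and 5 lowest differences among genes with the same sign in every dog and a mean of at least 50 CPM in the set where they are high, the 3 of each list with the highest level in members, the genes the study lists for this population, and, where no gene was called, the 5 smallest p-values each way. Other named genes were picked after their values had been seen. RefSeq names come from UU_Cfam_GSD_1.0, a build other than that of the counts, so no coordinates or sequences are given. One gene that the rule names is not reported here, and others of the lists are given by count. Tools were Python 3.11.15, scipy 1.17.1, numpy 2.4.6, scanpy 1.11.5, pandas 2.3.3, matplotlib 3.10.9, R 4.3.3, edgeR 4.0.16, limma 3.58.1 and DESeq2 1.42.0.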

Additional observations from a re-analysis of the deposited data

Results flagged for a closer look

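Healthy dog 7 lay far above the other 6 healthy dogs in shares and in gated monocytes. Its share was 63.6% of gated monocytes (next 8.63%), 4.41% of kept barcodes (next 1.03%) and 59.8% after thinning (next 16.2%), and 27.96% of its thinned B cells met the limit (next 9.72%). In its gated monocytes OAS1 was at 291 CPM (next 89.2), OAS2 at 343 (next 111), DDX58 at 112 (next 31.5), HERC6 at 150 (149.9 against 48.8), OAS3 at 70.1 (next 17.02), RTP4 at 52.3 (next 21.1), EIF2AK2 at 58.1 (next 27.7) and IFIT2 at 37.4 (next 13.7). Within the members it stood apart in ACVR2A (415 CPM, next 81.3), ENSCAFG00000029470 (191 CPM, next 53.3), SALL1 (5.79 CPM, which is 16 UMIs) and DOCK5 (0.362 CPM, which is 1 UMI). Other dogs stood apart within the members in FN1 (healthy dog 2 at 779 CPM, next 550), FOXJ3 (healthy dog 2 at 276 CPM, next 168, and OS dog 10 lowest at 68.6 CPM, next 96.03) and ENSCAFG00000046360 (healthy dog 6 at 3.67 CPM, which is 1 UMI). In 3 of these genes, SALL1, DOCK5 and ENSCAFG00000046360, the other healthy dogs were all at 0, so that any count stands apart. A single dog was this far from its group in 20 of 86 groups examined, these 3 included. The limit used gives about 1 in 20 only for normally distributed values. CPM and shares of few dogs need not be so distributed, so that the 20 of 86 cannot be set against that rate. The measures share cells and dogs and are not independent.

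The 6 genes whose difference between interferon-signature and other monocytes depended on OS (edgeR, dog as a block) were SAA1|ENSCAFG00000015205, an acute-phase protein (-4.12), PPARGC1A, a regulator of mitochondria (-8.41), CACNB2, a calcium channel subunit (9.42), ENSCAFG00000030258 (1.30), BACH2, a transcriptional repressor in lymphocytes (1.46), and AFF3, a nuclear factor of B cells (1.12). Adjusted p-values in edgeR were 1.54e-05 for SAA1|ENSCAFG00000015205 to 0.00741 for BACH2. Counts were few for some of the genes. PPARGC1A had 10 UMIs in the members of the 2 healthy dogs and none in those of 8 dogs with OS, CACNB2 had none and 12, so that their fitted values are no measure of size, and SAA1|ENSCAFG00000015205 had 24 and 54. AFF3 was at 36.2 and 40.7 CPM in the members and 59.9 and 78.1 CPM in the other monocytes of the healthy dogs, and at medians of 39.7 and 37.2 CPM in dogs with OS. Healthy dog 7 was 1 of the 2 healthy dogs, and a fit without it holds 1 healthy dog and cannot show whether the calls are stable.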

How the results depend on the processing

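Shares kept their direction and stayed above p = 0.05 under the other limits, depths and doublet removal, and the exact p fell to 0.0420 without healthy dog 7 for the first 2 shares. With 1 dog left out the difference was 6.90 to 10.8 percentage points of gated monocytes, 0.600 to 0.883 of kept barcodes and 7.48 to 10.5 after thinning. Same-numbered dogs are different animals, and the correlations of their deviations ran from -0.633 to 0.654. With the number as a replicate block, only the 7 numbers found in both groups entered the comparison of shares. The medians of their differences were 6.90, 0.576 and 10.1 percentage points. Exact sign-flip tests of the mean differences, not of these medians, gave p = 0.969, 0.766 and 0.984. The means were negative for the gated and the thinned share, so that the direction turned there. With the block 13 genes were called within the members, among them ENSCAFG00000005494 (6.10) and FN1 (1.37). With a minimum of 10 UMIs 1 gene was called there, ACVR2A (-3.10), and under all other settings 0. The interaction gave 0 calls with DESeq2 (263 genes at an unadjusted p under 0.05) and 0 with filterByExpr. It gave 11 at an edgeR adjusted p under 0.05 with no fold limit. With 1 dog with OS left out it gave 2 to 9, the 2 without OS dog 5, and 3 without OS dog 6. Fits without a healthy dog hold 1 healthy dog, and their counts are not given. Genes higher in every dog numbered 86 and genes lower 38 with at least 10 cells per dog, 173 and 69 with other monocytes drawn toward the members' depth, and 196 to 215 and 125 to 165 with 1 dog left out (165 without OS dog 2).

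Small log2 fold changes between OS and healthy within members changed sign. RTP4 was -0.0087 and EIF2AK2 -0.025 with DESeq2 size factors, -0.028 and -0.023 with DESeq2, and -0.010 and -0.024 with filterByExpr. With at least 25 cells OAS2 was -0.24, OAS3 -0.047, RTP4 -0.22 and IFIT2 -0.083. With the replicate block OAS3 was -0.094 and EIF2AK2 -0.13. A minimum of 4 UMIs gave RTP4 -0.076, and a minimum of 10 gave OAS2 -0.17, OAS3 -0.010, RTP4 -0.27 and IFIT2 -0.060. With 1 dog left out RTP4 ran from -0.14 to 0.26, EIF2AK2 from -0.075 to 0.10, OAS3 from -0.014 to 0.19 and IFIT2 from -0.071 to 0.22. In all gated monocytes RSAD2 was 0.27 with the replicate block, ISG15 -0.026 and IFIT1 -0.015 with middle-aged dogs with OS alone, and with 1 dog left out ISG15 ran from -0.10 to 2.20, IFIT1 from -0.0034 to 2.58 and RSAD2 from -0.63 to 1.98, each highest without healthy dog 7. The causes were not tested. Within the members 3-fold changes in genes with few UMIs were recovered less often in simulated data. Alternatives with other UMI minima after thinning, other left-out dogs in the description and healthy dogs without dog 7 were chosen after seeing the data.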
